A study of Mus musculus with 16 samples.

Results

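The genes described here encode the subunits of respiratory chain complexes I to IV that are transcribed in the nucleus, measured in mouse small intestinal organoids that carried or lacked the autophagy gene Atg16l1 and were left untreated or given IL-22. Members were chosen by symbol: protein-coding genes named Ndufa, Ndufb, Ndufc, Ndufs or Ndufv, Sdha to Sdhd, Uqcr, Cyc1, and Cox4i, Cox5, Cox6, Cox7 or Cox8, with assembly factors, pseudogenes and Ndufa4l2 left out. This rule found 68 of the 49585 genes in the count table, of which 21734 are protein-coding. The 68 divide into 37 subunits of complex I, 4 of complex II, 9 of complex III and 18 of complex IV. The rule itself uses no expression value, but it was chosen with earlier results of these data known.

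Organoids were grown from small intestinal crypts of mice on a C57BL/6 background, aged 8 to 12 weeks. Villin (V)-cre+; Atg16l1 fl/fl organoids, called Atg16l1 ΔIEC in the study and KO in the labels, had lost the floxed gene through a Cre that the villin promoter drives in intestinal epithelium. Villin (V)-cre- Atg16l1 fl/fl organoids, labelled WT, carried the same floxed alleles without Cre and are called fl/fl below. Cultures were stimulated 3 to 6 days after passage with recombinant murine IL-22 at 10 ng/ml for 24 h, or were left as untreated controls. The 16 cultures formed 4 groups of 4, and each genotype was represented by 2 organoid lines, each cultured 2 times under either treatment. The first line of a genotype gave replicates 1 and 2 and the second line replicates 3 and 4, so n = 4 counts cultures and not mice.

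The respiratory chain passes electrons from NADH, through complex I, or from succinate, through complex II, to complex III and then, by cytochrome c, to complex IV, which reduces oxygen. Complexes I, III and IV pump protons across the inner mitochondrial membrane, and ATP synthase uses the resulting gradient. Most subunits are encoded in the nucleus and imported, whereas a few catalytic ones are encoded by mitochondrial DNA. Several complex IV subunits exist as tissue isoforms, among them Cox7a1, known from heart and skeletal muscle, and its widely expressed counterpart Cox7a2. IL-22 is a cytokine that acts on epithelial cells through STAT3, and ATG16L1 is part of the complex that conjugates LC3 during autophagy.

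Sequence upstream of 4 members is shown here because the results turn on the isoform pair Cox7a1 and Cox7a2, on Uqcrh as a called complex III subunit, and on the contrast with Cox6a1, an abundant member that was not called. The stretches run 5′ to 3′ toward each gene, come from RefSeq on build GRCm38.p6, and end before the first exon of both RefSeq and GENCODE. Capitals mark the letters CGCATGCG (NRF-1 core) or CCGGAAG (ETS, the class of GABP), read on both strands, so that CTTCCGG is an ETS match on the other strand. The Cox7a1 stretch is chr7:30183921-30184143 on the plus strand. The others lie on the minus strand, at chr9:79759879-79760103 for Cox7a2, chr4:116075072-116075320 for Uqcrh and chr5:115348982-115349208 for Cox6a1.
Cox7a1: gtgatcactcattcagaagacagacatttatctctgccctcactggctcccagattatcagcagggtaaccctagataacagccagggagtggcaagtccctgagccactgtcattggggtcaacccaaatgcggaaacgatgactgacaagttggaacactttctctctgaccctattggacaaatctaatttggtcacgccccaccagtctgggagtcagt
Cox7a2: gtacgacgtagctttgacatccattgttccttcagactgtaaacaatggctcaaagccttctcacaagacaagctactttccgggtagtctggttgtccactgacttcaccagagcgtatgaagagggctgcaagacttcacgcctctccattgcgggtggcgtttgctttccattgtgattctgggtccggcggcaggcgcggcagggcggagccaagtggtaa
Uqcrh: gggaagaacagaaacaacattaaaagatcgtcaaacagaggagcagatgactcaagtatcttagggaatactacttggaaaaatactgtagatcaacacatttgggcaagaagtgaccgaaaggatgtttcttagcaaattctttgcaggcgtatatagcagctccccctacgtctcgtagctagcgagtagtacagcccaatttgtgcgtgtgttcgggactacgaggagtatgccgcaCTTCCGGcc
Cox6a1: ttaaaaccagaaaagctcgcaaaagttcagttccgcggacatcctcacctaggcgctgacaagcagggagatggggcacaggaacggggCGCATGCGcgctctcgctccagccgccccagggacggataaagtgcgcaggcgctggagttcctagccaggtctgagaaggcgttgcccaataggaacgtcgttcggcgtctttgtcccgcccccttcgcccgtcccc

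Uqcrh holds an ETS match that begins 10 bases before the RefSeq start, and Cox6a1 an NRF-1 core match 161 bases before it. Cox6a1 also holds an ETS match, at -16 from the RefSeq start, which lies past the end of the printed stretch. The Cox7a1 and Cox7a2 stretches hold none of the letters searched, which says nothing about whether the factors bind there. Over windows of 250 bases before to 50 bases after the start, available for 54 of the 68 members and for 27025 genes in all, the NRF-1 core was present in 5 members (9.26%), against 2.07% of all genes and 4.45% of the 9290 tested genes with a window. ETS letters were present in 11 members (20.4%), against 9.93% of all genes and 21.1% of the tested genes. The letters AAGATGG of YY1 were present in 8 members (14.8%), against 7.28% and 8.42%. The letters AAGGTCA of the estrogen-related receptors were present in 4 members (7.41%), against 5.38% and 4.09%. Matches of different motifs did not overlap in the member windows. Among the 12 members called lower with IL-22 in fl/fl below, 1 held the NRF-1 core, 2 ETS, 2 YY1 and 0 the estrogen-related receptor letters. Among the 40 tested members with a window that were not called, these counts were 4, 9, 6 and 4. The NRF-1 core thus had a share of 8.33% against 10%, ETS 16.7% against 22.5% and YY1 16.7% against 15%. These matches describe letters and are not evidence of binding.

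Counts on genes ranged from 2135000 to 5574860 per culture, and the 68 members together took 0.913% to 1.26% of them. Atg16l1 was low in both ΔIEC groups, at 2.67 ± 1.20 CPM (read counts scaled to a common library size, with TMM factors) untreated and 1.84 ± 2.76 with IL-22, against 40.2 ± 7.24 and 45.0 ± 6.33 in fl/fl (SD, n = 4 each). The 7 epithelial markers were all expressed. Cd3e, a defining marker of T cells, was at 0 in all cultures, and Col1a1, Col3a1, Pdgfra, Acta2, Des and Myh11 of stroma and muscle had at most 3 counts in any culture. Calls were made at an adjusted p under 0.01 by edgeR, fitted across 12559 genes.

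The organoid lines of fl/fl differed in the members, and this precedes every comparison below. The median member was lower in the second than in the first fl/fl line by a log2 difference of -0.23 untreated (60 of 63 tested members below 0) and -0.20 with IL-22 (60 of 63). In ΔIEC the corresponding medians were -0.03 (39 of 63) and -0.12 (47 of 63). The medians over all tested genes lay between -0.02 and 0.00. The medians of the comparisons described below lay between -0.22 and -0.05, so none was larger in size than the difference between the untreated fl/fl lines.

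Of the 68 members, 63 had enough counts to be tested. The 5 left out were complex IV isoforms: Cox7b2, Cox8b and Cox8c had 0 counts in every culture, Cox4i2 had at most 1 count and Cox6a2 at most 4. A count of 0 allows up to 3 counts in a library, so the 3 isoforms without counts were not detectable at this depth, and Cox6a2 was too low to test. Their paralogs were among the most abundant members per length. Levels per kilobase of exon, averaged over 16 cultures, were 617 CPM per kb for Cox8a, 515 for Cox6a1, 372 for Cox6b1, 269 for Cox4i1 and 228 for Cox7b. Cox6b2, best known from testis, was at 1.95 CPM per kb.

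**Figure D1:**
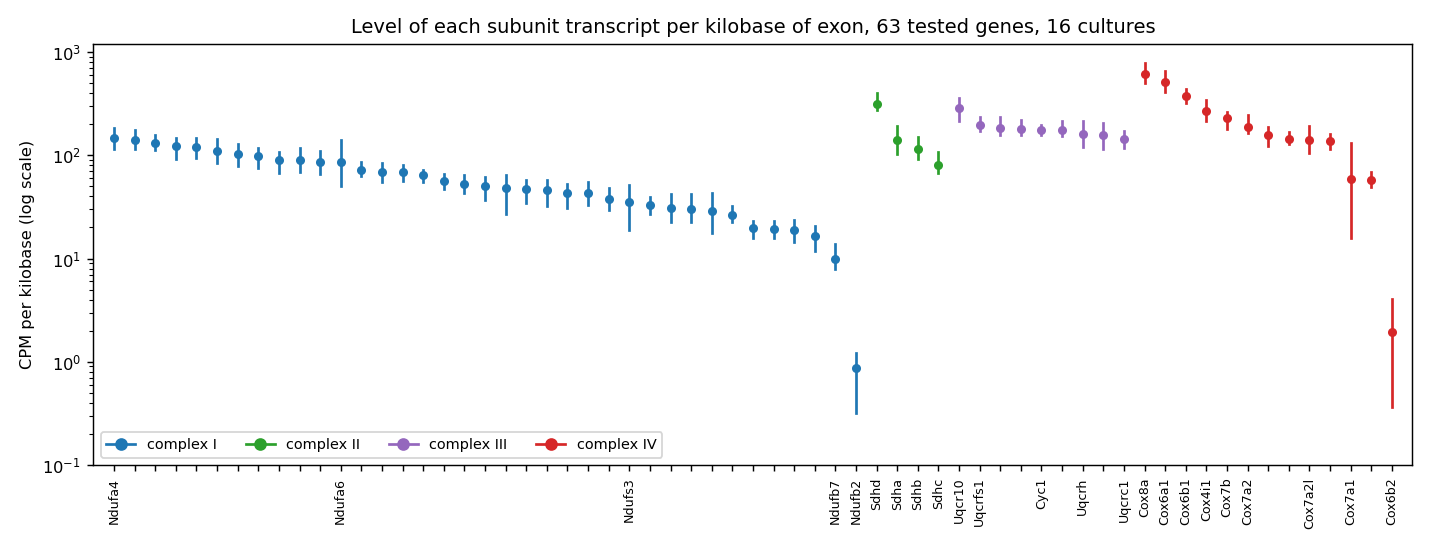
Level of the 63 tested members in CPM per kilobase of exon on a log axis, by complex. Points are means over 16 cultures, lines run from the lowest to the highest culture, and only some members are labelled by name. Cox8a is highest at 617 and Ndufb2 lowest at 0.863, and Cox7a1 has a wide range, from 15.8 to 131.

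All 9 complex III members lay between 143 (Uqcrc1) and 286 (Uqcr10) CPM per kb, including Cyc1, the heme-carrying cytochrome c1, at 176 and the Rieske iron-sulfur protein gene Uqcrfs1 at 199. In complex II, Sdhd (313) and Sdhc (80.7), which anchor the complex in the membrane, stood above and below the flavoprotein Sdha (142) and the iron-sulfur subunit Sdhb (114). Complex I ranged widely, from Ndufa4 at 146, a protein now placed with complex IV, to Ndufb7 at 10.0 and Ndufb2 at 0.863. Exon length here is the union over all annotated transcripts, 5628 bases for Ndufb2, so a gene with long rare transcripts is placed too low.

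Summed over members, the level was 11786 ± 1150 CPM in untreated fl/fl, 10377 ± 861 in fl/fl with IL-22, 10468 ± 245 in untreated ΔIEC and 9956 ± 553 in ΔIEC with IL-22 (SD, n = 4 each). The untreated fl/fl cultures ranged from 10688 to 12849 and the IL-22 cultures from 9400 to 11186, so the sums of these groups overlapped. Within each line they did not: the first line had 12849 and 12704 CPM untreated and 11186 and 11009 CPM treated, and the second 10688 and 10903 CPM untreated and 9913 and 9400 CPM treated. In the plot of summed levels, the first fl/fl line lies above the second in each complex and under both treatments.

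**Figure D2:**
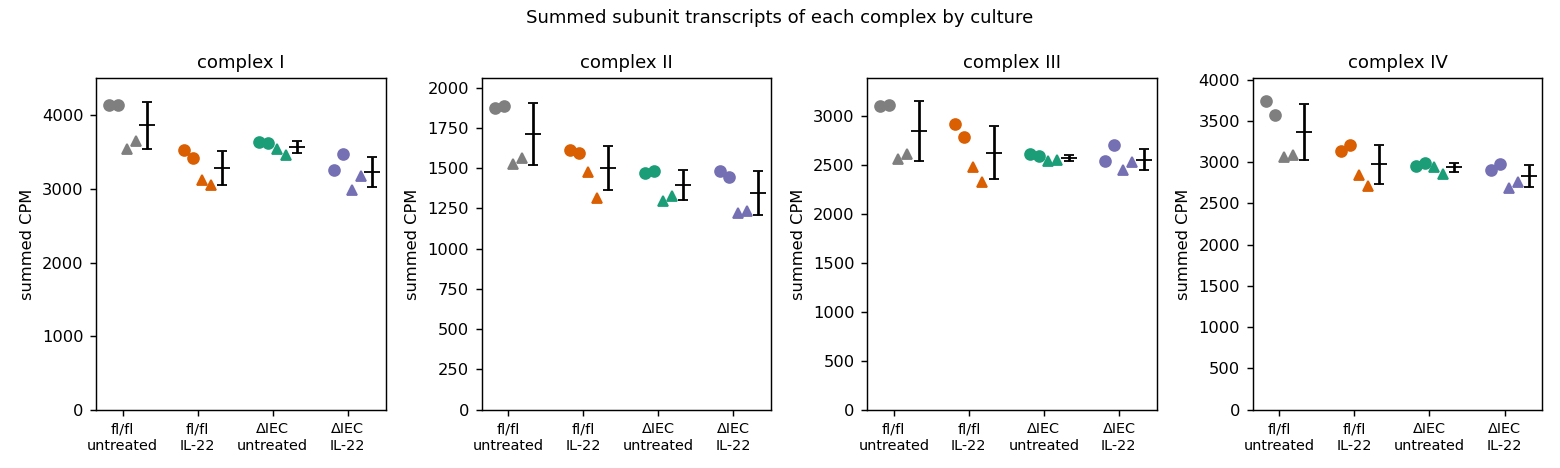
Summed CPM of the subunits of each complex in each culture. Circles are the first and triangles the second organoid line of a genotype, and the bar beside them is the mean ± SD over 4 cultures. For complex I the mean fell from 3867 to 3283 CPM between untreated and IL-22-treated fl/fl, and for complex II the untreated fl/fl cultures all lie above the untreated ΔIEC cultures.

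The first comparison asked how the subunit transcripts responded to IL-22 in organoids with Atg16l1. With IL-22, 12 of 63 tested members fell and 0 rose, where 10.2% of all tested genes were called lower and 10.6% higher. The median log2 fold change of the members was -0.22, against -0.05 over all genes, and 56 of 63 were below 0 (88.9%), against 55.3% of all genes. Complex I had 6 called of 37 (median -0.27), complex II 0 of 4 (-0.21), complex III 2 of 9 (-0.15) and complex IV 4 of 13 (-0.20). With the organoid line as a replicate block, which compares cultures within a line, 25 members were called lower, where 15.6% of all genes were. In 21 members all 4 treated cultures lay below all 4 untreated ones, against 15.4% of all genes, and in 0 members they lay above, against 15.4%.

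Cox7a1 (ENSMUSG00000074218.3, chr7:30184144-30186078, GRCm38), the muscle isoform of the small complex IV subunit 7A, had the smallest p. Its level was 67.5, 69.9, 49.0 and 49.8 CPM in untreated fl/fl replicates 1 to 4 and 33.3, 29.4, 32.1 and 28.2 CPM with IL-22. The groups were separate, although the untreated lines stood apart from each other. The log2 fold change was -0.95 (SE 0.12, adjusted p = 5.27e-06), so that 51.7% of the untreated level remained, and within the lines the difference was -1.12 and -0.70.

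Cox7a2 (ENSMUSG00000032330.7, chr9:79755361-79759878), the widely expressed isoform, was not called. Its cultures had 231, 198, 190 and 179 CPM untreated and 197, 185, 174 and 159 CPM with IL-22, and the groups overlapped. The log2 fold change was -0.16 (SE 0.08, adjusted p = 0.16). Of the counts on Cox7a1 and Cox7a2 together, Cox7a1 took 22.6%, 26.1%, 20.5% and 21.8% in untreated fl/fl and 14.5%, 13.7%, 15.6% and 15.0% with IL-22. The share was thus lower in all treated cultures than in any untreated one, and it does not depend on library scaling.

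Cox7a2l, which encodes a relative of subunit 7A, had 286, 282, 226 and 236 CPM untreated and 193, 201, 191 and 172 CPM with IL-22. All treated cultures were lower, by -0.45 on the log2 scale (SE 0.09, adjusted p = 5.75e-04). Uqcrh, the hinge protein of complex III, had 264, 265, 222 and 205 CPM untreated and 173, 198, 160 and 155 CPM treated. These groups were also separate (log2 fold change -0.48, SE 0.10, adjusted p = 0.001). Uqcr11, another small complex III subunit, fell by 0.49 on the log2 scale (adjusted p = 0.00318).

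All 7 nuclear-encoded core subunits of complex I, which carry its flavin and iron-sulfur clusters, had fold changes below 0, with a median of -0.31, and 3 of the 7 were called. Ndufs7, at the end of the electron path to ubiquinone, fell from 96.6–110 CPM to 63.3–80.7 CPM (a change of -0.54 on the log2 scale with SE 0.12 and adjusted p = 0.00198). The core subunits Ndufv1 and Ndufv2 fell by 0.31 and 0.36 on the log2 scale (adjusted p = 0.00449 and 0.00338). Ndufs1 (201–227 to 181–200 CPM) and Ndufs3 (95.5–112 to 82.4–94.9 CPM) did not pass, although their treated and untreated cultures were separate. Ndufs8 had 51.4–65.3 CPM untreated and 39.6–52.6 CPM treated, and overlapped (-0.35, adjusted p = 0.0315).

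**Figure D3:**
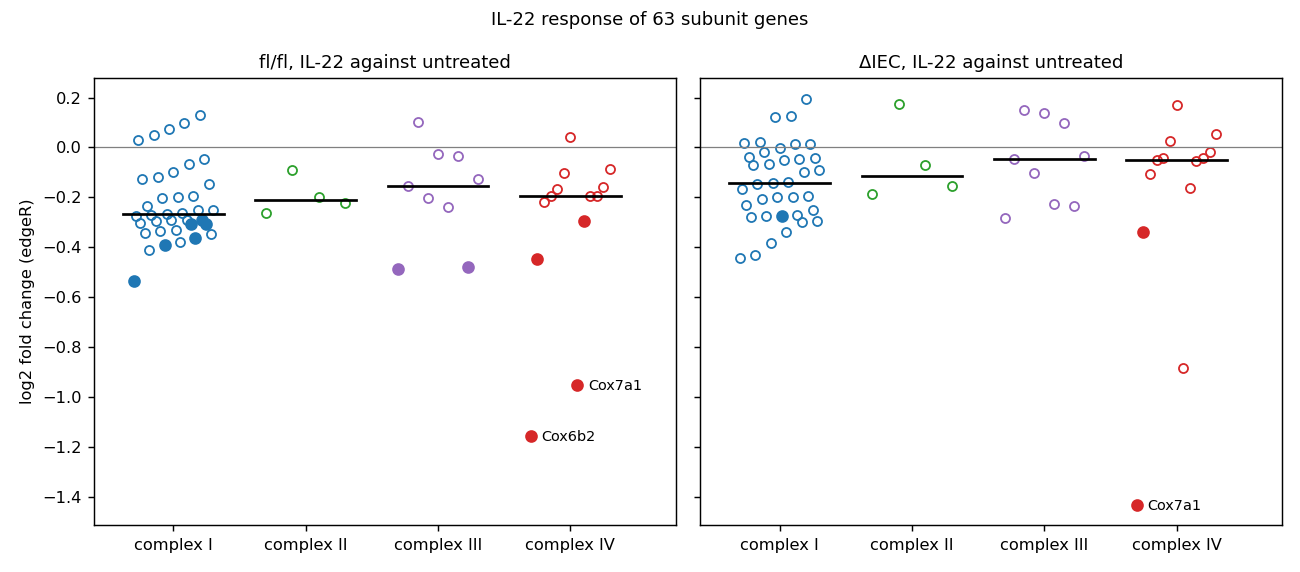
Log2 fold change with IL-22 of the 63 tested members by complex, in fl/fl (left) and ΔIEC (right). Filled circles were called lower at an adjusted p under 0.01, open circles were not called, and black lines are medians. Most points lie below 0 in both panels, and Cox7a1 lies at -0.95 in fl/fl and -1.43 in ΔIEC.

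The remaining called members were supernumerary or small subunits. Ndufab1, the mitochondrial acyl carrier protein, had 153, 159, 141 and 139 CPM untreated and 122, 121, 119 and 122 CPM treated (log2 fold change -0.29, SE 0.07, adjusted p = 0.00385). Ndufb3, Ndufa10 and Cox7c changed by -0.39, -0.31 and -0.30 on the log2 scale (adjusted p = 0.00648, 0.00745 and 0.00527). Cox6b2 was called at -1.16 (adjusted p = 0.00498) on 10 to 13 counts untreated and 4 to 9 counts treated, and its call was lost in 8 of 10 fits that left out a culture or a line and with DESeq2 or no filter on low counts.

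Complex II, whose 4 subunits are all nuclear-encoded, gave no call in fl/fl. Sdha had 762, 787, 612 and 662 CPM untreated and 656, 685, 563 and 520 CPM with IL-22, and the groups overlapped (log2 fold change -0.22, adjusted p = 0.147, and 0.0032 with the replicate block). Sdhb had 333, 341, 285 and 275 CPM untreated and 274, 271, 252 and 234 CPM treated, with the groups just separate (-0.26, adjusted p = 0.0151, and 5.65e-04 with the block). Sdhc and Sdhd overlapped between the groups. Sdhc had 352, 329, 258 and 263 CPM untreated and 282, 267, 279 and 223 CPM treated (-0.20, adjusted p = 0.133). Sdhd had 423, 430, 373 and 361 CPM untreated and 401, 370, 383 and 337 CPM treated (-0.09, adjusted p = 0.485).

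The major complex IV isoforms did not pass. Cox4i1 had 528, 471, 366 and 449 CPM untreated and 368, 495, 384 and 337 CPM treated (-0.20, adjusted p = 0.226). Cox8a had 486, 461, 377 and 364 CPM untreated and 420, 394, 354 and 339 CPM treated (-0.17, adjusted p = 0.204). Both overlapped between the groups. Cox6a1 had 463, 412, 360 and 343 CPM untreated and 398, 413, 340 and 339 CPM treated (-0.08, adjusted p = 0.556). Cox6b1 had 309, 302, 245 and 265 CPM untreated and 306, 276, 227 and 240 CPM treated (-0.10, adjusted p = 0.424). Cox7b had 319, 317, 303 and 293 CPM untreated and 296, 277, 257 and 250 CPM treated (-0.19, adjusted p = 0.114). These groups overlapped too. The highest fold changes among the members were 0.13 for Ndufb2, on 4 to 30 counts, and 0.10 for Uqcrc1 and Ndufs4, which were not called.

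The count of calls depended on single cultures and lines. Without the first fl/fl line 2 members were called lower (median -0.14), where 654 of 12852 genes were. Without the second there were 4 (median -0.22), where 493 of 12785 genes were. Without untreated replicate 1 or 2, or treated replicate 4, 5 were called, where 1163, 1084 and 993 genes were (of 12715, 12701 and 12714). Without treated replicate 3 there were 4, where 1005 of 12713 genes were. Without treated replicate 2 there were 7, where 947 of 12723 genes were. The members' share lay below that of all genes without the first line, untreated replicate 1 or 2, or treated replicate 3. In the other such fits it lay above, only just so without treated replicate 4. Across all such fits the count of members ran from 2 to 13. Cox7a1 kept its call in all 17 alternative fits. Scaling to gene totals without a composition factor, which moved the median of all genes from -0.05 to -0.12 and the calls over all genes from 1279 lower and 1329 higher to 1759 and 1048, gave 25 members called lower. The members' median relative to that of all genes was -0.18 under both scalings. Rescaling shifts all genes of a comparison by nearly the same amount, so this value could hardly change and is no test.

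Enterocyte markers moved with this comparison. The summed level of the 9 enterocyte markers was 3020 to 3420 CPM in untreated fl/fl and 854 to 1290 CPM with IL-22, and 7 of 9 were called lower. Of 6 stem cell markers 3 were called lower (1720 to 2140 CPM, then 913 to 1020 CPM), while 3 of 6 goblet (Muc2, Agr2, Spdef), 2 of 6 enteroendocrine (Tac1, Gcg), 1 of 6 Paneth (Mmp7) and 4 of 7 epithelial markers were called higher. The 6 immune markers summed to 4.01 to 5.55 CPM untreated and 8.07 to 9.11 CPM treated, with 0 called of the 2 that could be tested, and 0 were called of the 2 tuft cell markers tested. In these bulk cultures fewer cells of a type and less RNA per cell cannot be told apart, and the part of these markers in the result was not tested.

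In ΔIEC organoids, 3 of 63 members fell with IL-22 and 0 rose, where 7.65% of all genes were called lower and 9.83% higher. The share of members called was thus below that of all genes. The members' median was -0.10, against -0.01 over all genes, and 49 of 63 were below 0, against 50.9% of all genes. With the replicate block 9 were called lower, where 11.7% of all genes were. In 11 members the treated cultures all lay below the untreated ones, against 13.2% of all genes, and in 1, Cox5a, all lay above, against 14.1%.

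Cox7a1 again had the smallest p. Its cultures had 25.2, 27.6, 25.3 and 25.3 CPM untreated and 10.9, 9.94, 8.46 and 9.26 CPM with IL-22, without overlap, on 27 to 35 counts in the treated cultures. The log2 fold change was -1.43 (SE 0.15, adjusted p = 7.71e-07), so that 37.1% of the untreated level remained. Cox7a2 had 155, 176, 178 and 167 CPM untreated and 167, 181, 166 and 174 CPM treated, and did not pass (0.03 on the log2 scale, adjusted p = 0.852). The Cox7a1 share of the pair was 14.0%, 13.5%, 12.5% and 13.2% untreated and 6.15%, 5.20%, 4.86% and 5.05% with IL-22.

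The other called members were Cox7a2l, at 232, 226, 202 and 207 CPM untreated and 170, 181, 155 and 181 CPM treated (-0.34, SE 0.09, adjusted p = 0.00641), and Ndufab1, at 142, 140, 140 and 152 CPM untreated and 130, 122, 110 and 113 CPM treated (-0.28, SE 0.07, adjusted p = 0.00665). Both had separate groups. Of 10 fits that left out a culture or a line, Cox7a2l lost its call in 8 and Ndufab1 in 9. The replicate block added Ndufa10, Ndufa6, Ndufb4, Ndufs3, Ndufv2 and Uqcrh. Ndufb4, a supernumerary complex I subunit, had 59.1 to 61.9 CPM untreated and 43.4 to 45.8 CPM treated (-0.44, adjusted p = 0.012, and 2.42e-04 with the block). The core complex I subunits were all below 0 with a median of -0.19 and 0 of 7 called, among them Ndufs7 at 83.1 to 87.1 CPM untreated and 47.0 to 85.2 CPM treated.

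Scaling to gene totals moved the median of all genes to -0.12 and of the members to -0.22 here and gave 16 members called lower, with 1597 genes called lower and 865 higher, in place of 961 and 1234. Relative to all genes the members' median was -0.09 under both scalings, a value that rescaling could again hardly change. DESeq2 called 6 members lower, and fits that left out a culture or a line called 1 to 4. The count was 1 without either ΔIEC line, without untreated replicate 1, 2 or 4, and without treated replicate 3, and 2 without treated replicate 2 or 4. In these fits 418 (of 12937) to 897 (of 12726) genes were called lower. Enterocyte markers fell in ΔIEC too, from 3090–3730 to 991–1610 CPM summed, with 5 of 9 called lower, as were 5 of 6 stem cell markers. Of 6 goblet cell markers 2 were called lower (Fcgbp, Tff3) and 2 higher (Agr2, Muc2), and 1 Paneth (Mmp7), 1 enteroendocrine (Tac1) and 1 epithelial marker (Krt20) were called higher. Their part in the result was not tested.

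The IL-22 comparisons of the genotypes share no cultures. The 3 members called in ΔIEC were all among the 12 called in fl/fl, that is 3 of 3 and 3 of 12, and with the replicate block the overlap was 8 of 9 and 8 of 25, the remaining call in ΔIEC being Ndufs3 (interaction -0.13, adjusted p = 0.914). The fold change was more negative in fl/fl in 54 of 63 members, against 6884 of 12559 genes. The difference itself was tested as an interaction of genotype and IL-22, for which 0 of 63 members were called, where 0.0159% of all genes were. At an unadjusted p under 0.05 there were 3 of 63 members and 912 of 12559 genes in edgeR, 1 member and 708 genes in DESeq2, and 6 members and 1379 genes with voom. With the block 0 members were called, where 0.446% of all genes were, and 8 members and 1661 genes had an unadjusted p under 0.05.

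The smallest interaction p belonged to Cox7a1, Cox5b and Ndufa2. For Cox7a1 the response was more negative in ΔIEC by a log2 difference of -0.48 (SE 0.20, adjusted p = 0.57 by edgeR). Cox5b, a zinc-binding complex IV subunit, had 270, 257, 228 and 223 CPM untreated and 221, 219, 209 and 206 CPM treated in fl/fl, and 226, 229, 220 and 221 CPM untreated and 259, 231, 204 and 237 CPM treated in ΔIEC. Ndufa2, a supernumerary subunit of complex I, had 101, 101, 68.9 and 78.4 CPM untreated and 68.5, 74.8, 68.3 and 65.9 CPM treated in fl/fl, where the untreated lines stood apart, and 73.3 to 93.2 CPM in all ΔIEC cultures. The interaction estimates were 0.25 (SE 0.11, adjusted p = 0.641) and 0.34 (SE 0.16, adjusted p = 0.675).

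The next comparison set ΔIEC against fl/fl in untreated organoids. In ΔIEC 6 of 63 members were lower and 0 higher, where 5.98% of all genes were called lower and 3.78% higher. The median was -0.16, against -0.02 over all genes, and 56 of 63 were below 0, against 52.3% of all genes. In 13 members all ΔIEC cultures lay below all fl/fl cultures, against 12.6% of all genes, and in 0 above, against 10.6%. The complex medians were -0.10 (I), -0.31 (II), -0.15 (III) and -0.20 (IV).

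Cox7a1 differed most, at the untreated levels given above, with separate groups and a log2 difference of -1.20 (SE 0.12, adjusted p = 3.65e-06). Ndufs3 (ENSMUSG00000005510.9, chr2:90894634-90904827), a core subunit of the matrix arm of complex I, had 112, 110, 101 and 95.5 CPM in fl/fl and 66.5, 59.5, 55.1 and 73.9 CPM in ΔIEC. No culture of ΔIEC reached an fl/fl level, and the log2 difference was -0.72 (SE 0.10, adjusted p = 1.04e-04), or 60.8% of fl/fl. Ndufa6 (ENSMUSG00000022450.5, chr15:82350140-82354322), a supernumerary subunit of that arm, had 256, 244, 166 and 195 CPM in fl/fl and 129, 129, 125 and 137 CPM in ΔIEC. The groups were separate and the log2 difference was -0.73 (SE 0.11, adjusted p = 1.80e-04).

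**Figure D4:**
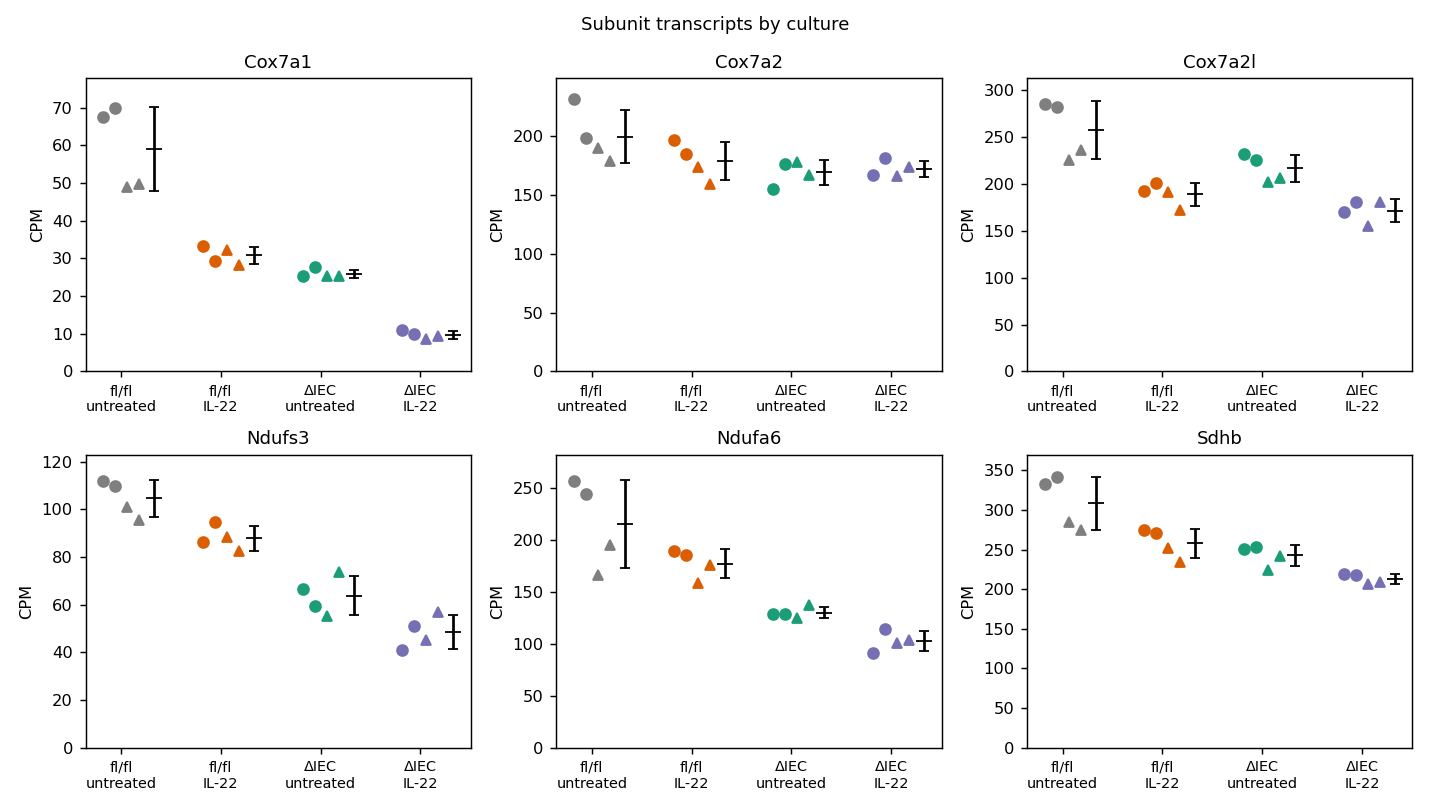
CPM of 6 members in each culture, in the 4 groups. Circles are the first and triangles the second organoid line, and the bar is the mean ± SD over 4 cultures. The mean of Cox7a1 is 59.0 and 30.7 CPM in untreated and IL-22-treated fl/fl and 25.9 and 9.65 CPM in ΔIEC, whereas all cultures have 155 to 231 CPM of Cox7a2, and Ndufs3 and Ndufa6 of untreated ΔIEC lie below all fl/fl cultures.

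Complex II had the lowest median of the complexes. Sdhb, the iron-sulfur subunit, had 251, 253, 224 and 242 CPM in ΔIEC, below the fl/fl range of 275 to 341 CPM (-0.35, SE 0.08, adjusted p = 0.00454). The Sdhb call was lost in 9 of 12 fits that left out a culture or a line. Sdha had 574, 599, 485 and 509 CPM, below the fl/fl range of 612 to 787 CPM, without a call (-0.38, SE 0.11, adjusted p = 0.0225). Sdhc had 253, 256, 241 and 243 CPM, just below the fl/fl range of 258 to 352 CPM (-0.28, adjusted p = 0.0524), and Sdhd had 336 to 390 CPM and overlapped (-0.13, adjusted p = 0.339). Cox6c and Ndufa10 were called at -0.29 and -0.33 (adjusted p = 0.00712 and 0.0083). Ndufs1, in the core of complex I, was at 0.14 and was not called.

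The size of this difference depended on the fl/fl line. Without the first fl/fl line the members' median was -0.02 with 3 called lower, and without the second it was -0.26 with 13 called. Over all genes 425 of 12852 and 948 of 12785 were called lower in these fits. Without either ΔIEC line, untreated ΔIEC replicate 1, 2 or 3, or fl/fl replicate 1 or 2, 3 members were called. There 319 (of 12876) to 551 (of 12724) genes were called lower. The 3 members Cox7a1, Ndufs3 and Ndufa6 kept their calls in each of the 12 fits that left out a culture or a line, and lost them where the cultures of a line were summed (adjusted p = 0.0186, 0.0249 and 0.0407), in which 0 members were called. That fit compares 2 lines with 2. Gene totals gave 3 members lower and turned the median of all genes to 0.06 and of the members to -0.07, with 533 genes called lower and 849 higher in place of 751 and 475.

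Markers of secretory cells moved with genotype. Of 6 Paneth cell markers 3 were called lower in untreated ΔIEC (3150 to 4130 CPM summed, against 5590 to 7930 CPM in fl/fl), and of 6 goblet cell markers 3 (1310 to 1750, against 1730 to 2630 CPM). Of 6 stem cell markers 3 were called higher, of 9 enterocyte markers 1 was called higher, and of 6 enteroendocrine cell markers 1 was called lower. Their part in the result was not tested.

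With IL-22 in both genotypes, 5 of 63 members were lower in ΔIEC and 0 higher, where 9.84% of all genes were called lower and 9.91% higher. The median was -0.05, against 0.01 over all genes. In 7 members the ΔIEC cultures all lay below the fl/fl cultures, against 14.2% of all genes, and in 2 above, against 15.4%. These shares lie near or below those of all genes. Without the first fl/fl line the members' median was 0.02, and without the second -0.15 with 8 called lower, where 961 of 12785 genes were. Without the first fl/fl line, either ΔIEC line, ΔIEC replicate 2 or 4, or fl/fl replicate 1 or 2, 3 members were called lower. There 550 (of 12876) to 1166 (of 12937) genes were called lower. Without ΔIEC replicate 3, 2 members were called higher, where 1359 of 12735 genes were. Without the second ΔIEC line the median was 0.0044 and 1 was called higher, where 955 of 12937 genes were.

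**Figure D5:**
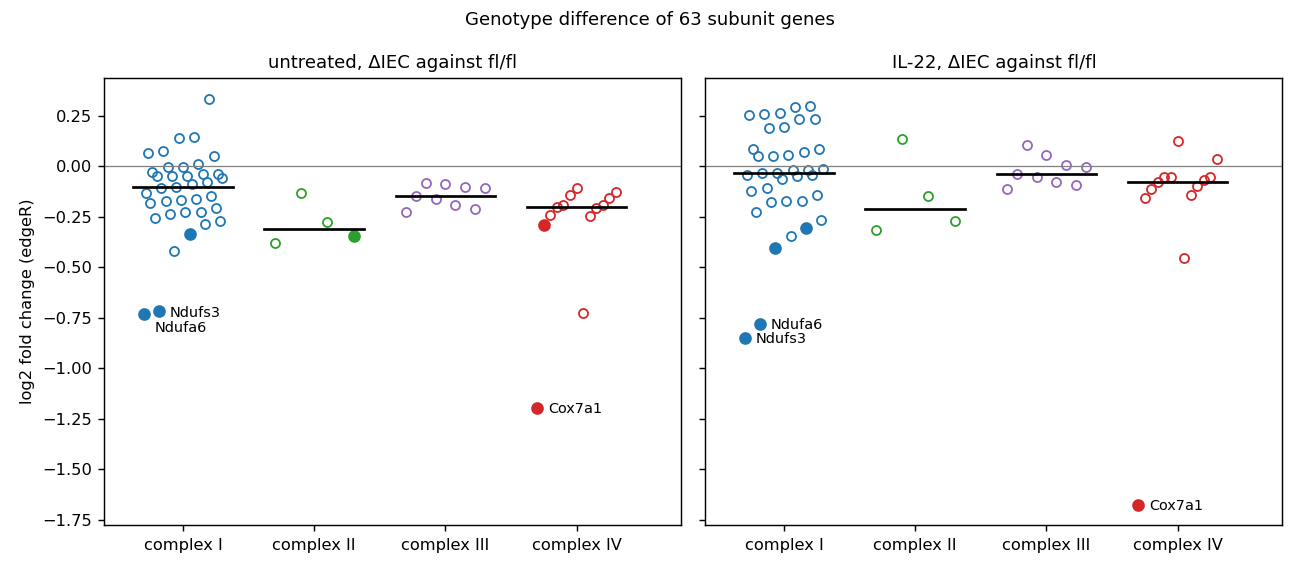
Log2 difference of ΔIEC against fl/fl for the 63 tested members by complex, untreated (left) and with IL-22 (right). Filled circles were called lower at an adjusted p under 0.01, open circles were not called, and black lines are medians. Cox7a1 lies at -1.20 and -1.68, Ndufs3 at -0.72 and -0.85, and Ndufa6 at -0.73 and -0.78, whereas complex III members lie within 0.23 of 0 in both panels.

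Cox7a1 was at the IL-22 levels given above in the genotypes, with a log2 difference of -1.68 (SE 0.15, adjusted p = 4.17e-07), or 31.3% of fl/fl. Ndufs3 had 86.3, 94.9, 88.2 and 82.4 CPM in fl/fl and 40.9, 51.1, 45.3 and 57.0 CPM in ΔIEC, with no overlap (-0.85, SE 0.11, adjusted p = 1.23e-05). Ndufa6 had 189, 185, 158 and 176 CPM in fl/fl and 90.7, 114, 101 and 104 CPM in ΔIEC, again apart (-0.78, SE 0.11, adjusted p = 4.49e-05). These 3 were called both untreated and with IL-22, in comparisons that share no cultures but come from the same lines. Ndufc1 and Ndufa10 were called at -0.40 and -0.31 (adjusted p = 0.00421 and 0.00919). Ndufs1 had all ΔIEC cultures above fl/fl (201 to 237 CPM, against 181 to 200), at 0.20 with adjusted p = 0.0478, and was not called. With IL-22, 5 of 6 Paneth and 4 of 6 goblet cell markers were called lower in ΔIEC, as were 3 of 6 enteroendocrine cell markers (Chga, Gcg, Chgb) and 1 of 7 epithelial markers (Cdx2). Of 9 enterocyte markers 3 were called higher, and of 6 stem cell markers 3 were called higher (Olfm4, Ascl2, Smoc2) and 1 lower (Lgr5). Their part in the result was not tested.

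Other genes of oxidative metabolism are given from lists of their functions. None of the 18 tested nuclear-encoded ATP synthase genes was called in any of the 5 comparisons, with medians of -0.15 for IL-22 in fl/fl, -0.11 for IL-22 in ΔIEC, -0.06 for genotype untreated and 0.04 with IL-22. Of 42 assembly factors of complexes I to IV, 2 fell and 1 rose with IL-22 in fl/fl. These shares lie below the 10.2% of all genes called lower and 10.6% called higher. The lowest p among those that fell was that of Nubpl, which helps to insert iron-sulfur clusters into complex I (-0.78, adjusted p = 0.00218), and Sco1, a copper chaperone of complex IV, rose in fl/fl (0.48, adjusted p = 0.00298) and ΔIEC (0.57, adjusted p = 6.96e-04). Coa6, a complex IV assembly factor, was higher in ΔIEC untreated (0.48, adjusted p = 0.0081) and with IL-22 (0.64, adjusted p = 7.50e-04). With IL-22, 4 of 42 factors were higher in ΔIEC and 0 lower, near or below the 9.91% and 9.84% of all genes.

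Mitochondrial DNA encodes further subunits of the same complexes, of which 7 could be tested. With IL-22, 0 of 7 were called in fl/fl (median 0.24) and 3 fell in ΔIEC (median -0.50). In ΔIEC against fl/fl, 3 of 7 were lower untreated (median -0.19) and 7 of 7 with IL-22 (median -1.07). The interaction called 0 of 7 (median -0.78). Of all genes, 5.98% untreated and 9.84% with IL-22 were called lower between genotypes, and 7.65% with IL-22 in ΔIEC. Mitochondrial genes took 1.22% to 1.40% of gene counts in the first fl/fl line and 1.76% to 2.10% in the second. The dependence of these calls on the line was not tested. mt-Co1, the catalytic subunit of complex IV, had the smallest p in ΔIEC with IL-22 (-0.83, adjusted p = 1.92e-04) and between genotypes untreated (-0.78, adjusted p = 9.17e-04) and with IL-22 (-1.59, adjusted p = 5.74e-07).

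Of 17 genes of the tricarboxylic acid cycle and pyruvate dehydrogenase, 3 fell with IL-22 in fl/fl and 2 in ΔIEC, led by the NADP-dependent isocitrate dehydrogenase Idh2 at -0.69 (adjusted p = 2.60e-05) and -0.66 (adjusted p = 5.36e-05). Of all genes, 10.2% were called lower with IL-22 in fl/fl and 7.65% in ΔIEC. In ΔIEC against fl/fl, 6 of 17 were lower untreated and 5 with IL-22, where 5.98% and 9.84% of all genes were. The smallest p values there were those of the pyruvate dehydrogenase subunits Pdhb untreated (-0.45, adjusted p = 0.00113) and Pdha1 with IL-22 (-0.36, adjusted p = 0.00113).

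Among 12 transcriptional regulators of respiratory genes, Tfam, which packages and transcribes mitochondrial DNA, was the 1 gene called with IL-22 in fl/fl (-0.40, adjusted p = 0.00427). In ΔIEC 0 were called with IL-22. Of all genes, 10.2% were called lower and 10.6% higher in fl/fl, and 7.65% and 9.83% in ΔIEC. Ppargc1a, the coactivator PGC-1α, was lower in ΔIEC untreated (-1.18, SE 0.15, adjusted p = 4.76e-05) and with IL-22 (-1.29, SE 0.15, adjusted p = 7.81e-06). Gabpa, the ETS-family subunit of GABP, was higher in ΔIEC untreated (0.37, adjusted p = 0.00957) and with IL-22 (0.40, adjusted p = 0.00258). Of 7 tested mitophagy receptors, 3 rose with IL-22 in fl/fl, led by Sqstm1 (1.10, adjusted p = 4.22e-05), and 4 in ΔIEC, led by Tax1bp1 (0.84, adjusted p = 1.53e-06). The shares of all genes called higher were 10.6% and 9.83%. Bnip3 was lower in ΔIEC untreated (-0.61, adjusted p = 1.36e-04) and with IL-22 (-0.38, adjusted p = 0.00266).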

How the data were processed

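Paired-end RNA-seq reads were trimmed with cutadapt, aligned to GRCm38 (mm10) with TopHat2 and counted per gene with HTSeq by the authors, and the deposited values are these whole-number counts without normalization. The kit in the labels (TruSeq RNA v2) does not mark strand and the study names a stranded protocol, and the strand setting and annotation release are not given in the sources used here. Reads outside genes (38.0% to 40.1% of the table's total), on several genes (0.74% to 1.13%) or aligned to several places (21.5% to 24.2%) stayed out of library sizes and tests, so members with near-identical copies may be undercounted. Identifiers were matched without version to GENCODE M21 for 99.5% of genes. Without a known strand setting, reads of overlapping antisense genes cannot be told apart: this touches 20 members, among them Ndufs3 (4.04% of exon bases, Kbtbd4), Cox6c (7.01%, Vps13b), Cox4i1 (9.94%, Emc8), Cox5a (12.8%, Gm26631), Ndufab1 (3.91%, Gm44986), Ndufa2 (11.5%, Tmco6) and Ndufs1 (6.16%, Eef1b2 and Ino80dos). Some items are not reported here.

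Genes were kept by filterByExpr, scaled by TMM and tested with edgeR 4.0.16 quasi-likelihood in R 4.3.3, all 4 groups in 1 fit, two-sided, with Benjamini-Hochberg adjustment over 12559 genes and calls under 0.01. CPM used TMM-scaled library sizes. The p-values measure the spread between cultures of 2 lines per genotype. Within a genotype the labels tie treated and untreated cultures to the same organoid line: deviations from the group mean correlated at 0.263 to 0.438 (fl/fl) and 0.0563 to 0.321 (ΔIEC) between treatments in the same line, and at -0.435 to -0.0779 otherwise. The line was therefore also fitted as a replicate block for the IL-22 comparisons. Culture pairs of 1 group differed beyond sampling noise (chi-square per degree of freedom 1.35 or more).

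Values were given for the 3 called members with the smallest p per comparison, the 3 with the smallest interaction p, complex II and the complex IV isoforms, with ranges for the complex I core. Of other lists the called gene with the smallest p was named. Alternatives were DESeq2 1.42.0, RLE scaling, gene totals, no low-count filter, lines summed, limma 3.58.1 (voom, with the line as a random effect), the block, and leaving out each culture or line. The members and gene lists were chosen with earlier results of these data known. The fitting procedure was tested on simulated data. The common biological coefficient of variation was 0.115.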

Additional observations from a re-analysis of the deposited data

Results flagged for a closer look

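In untreated ΔIEC, 3 members had 1 culture set apart from the other 3 by Dixon's criterion. Cox7a1 was at 27.6 CPM in replicate 2, with the others at 25.2 to 25.3 CPM. Ndufs8 was at 66.7 CPM in replicate 2, with the others at 54.7 to 56.6 CPM. Ndufab1 was at 152 CPM in replicate 4, with the others at 140 to 142 CPM. These are 3 of 120 groups checked, and chance flags about 1 in 20 groups.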

How the results depend on the processing

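Alternatives were run for the counts, the medians and the called members, not for the members named without a call, and no called value changed sign. The members' median for genotype with IL-22 (-0.05) did turn, to 0.02 without the first fl/fl line and to 0.0044 without the second ΔIEC line. For members lower with IL-22 in fl/fl (12), gene totals gave 25, the replicate block 25, voom 20 and summed lines 1, and leaving out cultures or lines gave 2 to 13. For IL-22 in ΔIEC (3), DESeq2 gave 6, gene totals 16, voom 8, the replicate block 9 and summed lines 1, and leaving out gave 1 to 4. For members lower in untreated ΔIEC (6), gene totals gave 3 and summed lines 0, and leaving out gave 3 to 13. For members lower in ΔIEC with IL-22 (5), summed lines gave 2 and voom 3, and leaving out gave 3 to 8. For members higher there (0), gene totals and no filter gave 1 each, and leaving out gave 0 to 2. The calls over all genes moved as well. For IL-22 in fl/fl, the fits named gave 1759, 1957, 1759 and 187 genes lower, against 1279. For IL-22 in ΔIEC they gave 1006, 1597, 1305, 1471 and 250, against 961. Between genotypes they gave 533 and 7 untreated, against 751, and 132 and 937 with IL-22, against 1236. Genes called higher there were 1495 and 1464, against 1245. The causes were not tested, except that summing leaves 2 samples per group. Among single calls, those of Cox7a1 with IL-22 and with genotype under IL-22, and of Ndufs3 with genotype under IL-22, were kept in all 17 or 18 alternatives. Ndufa6 with genotype under IL-22 lost its call where lines were summed (adjusted p = 0.018 by edgeR). Calls near a log2 change of 0.3 were the ones most often lost: Cox6c and Ndufa10 untreated between genotypes lost theirs in 11 of 12 fits that left something out. Cultures of 2 lines per genotype limit every genotype comparison, and members at a few counts (Cox6b2, Ndufb2) are limited by depth.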
